A study of Mus musculus with 8 samples.

Results

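MHC class I heavy chains are the polymorphic membrane proteins that carry peptides to the cell surface, and 7 of their mouse genes were followed here. They are H2-K1, H2-K2, H2-D1, H2-Q4, H2-Q6, H2-Q7 and H2-T23, taken by gene symbol from a table of 45706 genes, and all 7 had a row. The cells were primary fibroblasts from mouse embryos on a C57BL/6 background, either of the genotype crel-/-rela-/- (knockout, KO), which removes cRel and RelA, or wild type (WT). RelA and cRel are subunits of NF-kB that carry a transactivation domain. All cells were kept overnight in 0.5% serum, and tumour necrosis factor (TNF), an inflammatory cytokine upstream of NF-kB, was added at 10 ng/ml for 15, 45 or 60 min. The cells at 0 min received none. Each genotype and time gave 1 library of chromatin-associated RNA, the fraction of transcripts still held at their genes, so there were 4 KO and 4 WT libraries. No untreated library of 15, 45 or 60 min was analysed here, so effects of TNF and of elapsed time cannot be told apart. The series title places the work in a study of how RelA target genes are regulated in inflammation.

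A class I molecule is a heavy chain bound to beta-2 microglobulin and to a short peptide. The proteasome makes such peptides, the transporter TAP brings them into the endoplasmic reticulum, and tapasin helps load them. H2-K1 and H2-D1 encode the classical chains K and D, which present peptides to CD8+ T cells. H2-T23 encodes Qa-1, a nonclassical chain that is a ligand of the NKG2A receptor of natural killer cells. H2-Q7 encodes Qa-2, and H2-Q6 is its close relative. H2-Q4 encodes another nonclassical chain of the Qa region. H2-K2 lies beside H2-K1 and is annotated as a transcribed unprocessed pseudogene in GENCODE M21. Fibroblasts, like most nucleated cells, carry class I molecules, and the promoters of classical class I genes are known for an enhancer that NF-kB binds, next to an element for interferon regulatory factors.

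All members lie on chromosome 17, and the counts are of exonic reads. In the deposited mm10 coordinates H2-K2 (ENSMUSG00000067203) spans 33974831 to 33978790 on the minus strand, and H2-K1 (ENSMUSG00000061232) spans 33996017 to 34000333 on the minus strand. H2-D1 spans 35262730 to 35267499, H2-Q4 spans 35379617 to 35385290, H2-Q6 spans 35424850 to 35430055 and H2-Q7 spans 35439155 to 35443773, all on the plus strand. H2-T23 spans 36029773 to 36032855 on the minus strand.

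The promoters show what the members share in sequence. RefSeq promoters (GRCm38.p6, 250 bases before the annotated start) were matched for 6 of the 7 members, with H2-K2 named only. The promoter of H2-K1, the member with the most counts, is given whole at chr17:34000334-34000583 on the minus strand, with its NF-kB (kB) consensus run in capitals.
H2-K1 promoter: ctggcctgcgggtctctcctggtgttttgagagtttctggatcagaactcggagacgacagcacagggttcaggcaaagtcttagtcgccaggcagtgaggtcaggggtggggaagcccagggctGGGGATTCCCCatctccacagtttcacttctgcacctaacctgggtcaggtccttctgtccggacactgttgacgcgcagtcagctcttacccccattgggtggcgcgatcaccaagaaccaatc

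To compare the members, the 30 bases around the kB run follow for the 5 promoters that hold one, with the run in capitals. H2-T23, which holds none, is shown by its only match to the core of the interferon-stimulated response element (ISRE), which lies on the opposite strand and is also in capitals.
H2-K1 (chr17:34000438-34000467, minus strand): cccagggctGGGGATTCCCCatctccacag
H2-D1 (chr17:35262914-35262943, plus strand): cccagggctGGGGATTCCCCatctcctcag
H2-Q4 (chr17:35379434-35379463, plus strand): atcaggggtGGGGATTTCCCatctccccag
H2-Q6 (chr17:35424668-35424697, plus strand): cccatggctGGGGATTCCCCatctccccag
H2-Q7 (chr17:35439013-35439042, plus strand): cccatggctGGGGATTCCCatctccccagt
H2-T23 (chr17:36032806-36032835, minus strand): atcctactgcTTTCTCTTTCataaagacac

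H2-K1, H2-D1 and H2-Q6 had the same 11-base run. Counted from 1 at the 5′ end of that run, H2-Q4 differed from H2-K1 by C8T. The H2-Q7 run had 1 C fewer at its 3′ end, and the letters after it matched those after the run of H2-Q6. Counted back from the start, the run began at base -125 in H2-K1, -133 in H2-Q7, -171 in H2-D1, -173 in H2-Q6 and -174 in H2-Q4. Over both strands, a match to the 10-base kB consensus (known as the kB site and allowing several bases at some positions) was thus in 5 of 6 promoters, against 7.25% of 32851 promoters in the table. The ISRE core, searched as an exact pattern, was in 1 of 6, against 2.98% of all. All 5 promoters with a kB run hold the letters tttcacttct after it, which this pattern does not match. A missing match therefore does not show that an element for interferon regulatory factors is absent. The letters TGACGC, like a cyclic AMP response element, were in 2 of 6, H2-K1 and H2-D1, against 6.12%. The promoters of H2-Q4 and H2-Q7 hold TGACGT, which this pattern does not match. Here too, a missing match does not show that an element is absent. The letters CCAAT were in all 6, against 33.8%. Matches of the kB consensus overlapped one another within the run, and no match overlapped one of another motif. The annotated start lay at the 5′ end of the deposited row for H2-K1, H2-Q4, H2-Q6 and H2-Q7, but 364 bases from it for H2-D1 and 154 bases for H2-T23. These matches are descriptions of letters, and binding was not measured.

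**Figure D1:**
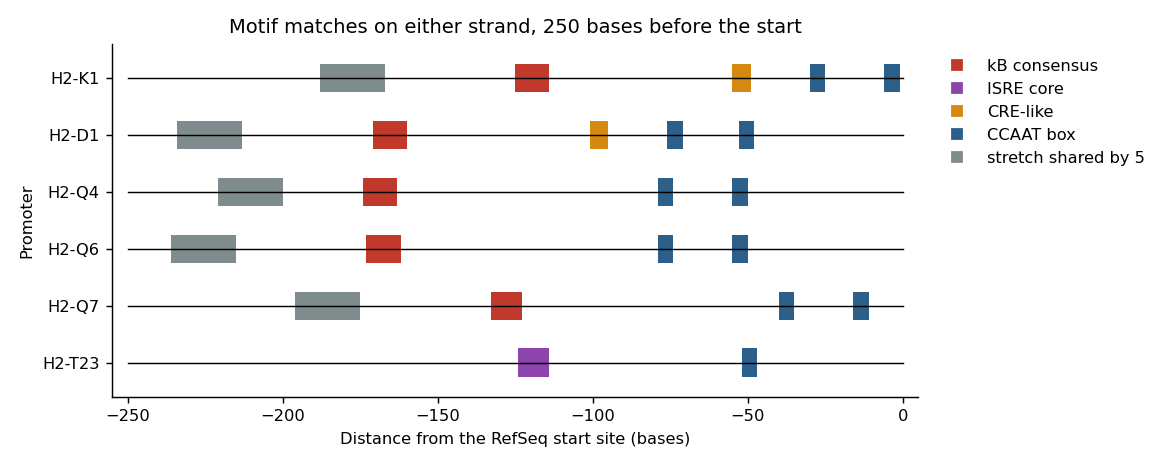
Matches to 4 motifs and a stretch of 21 bases shared by 5 members, on either strand of the RefSeq promoters of 6 members. The horizontal axis is the distance from the start in bases, and each box is a match. The kB run is present in 5 promoters and absent from that of H2-T23, which holds the ISRE core at bases -124 to -115.

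The 8 libraries held 12359817 to 15607331 counts, of which 58.9% to 70.6% fell on 3 genes with no part in antigen presentation (Gm26917, Gm42418 and Malat1). Reads of the targeted genes were present in KO libraries, where Rela had 241 to 324 counts against 324 to 704 in WT, and Rel had 308 to 633 against 151 to 805 in WT. The sources used here do not say which exons were removed, and exonic counts therefore do not check the labels. Levels are given in CPM, counts scaled to a common library size. Of 11 fibroblast markers none was at 0 in any library, and their summed level was 10333 to 13794 CPM in KO and 9827 to 12518 CPM in WT. The summed level of 13 leukocyte markers was 7.47 to 9.26 CPM in KO, with 1 to 5 of them at 0, and 76.1 to 106 CPM in WT, with none at 0. Most of the KO sum was Cd68 (93, 77, 67 and 78 counts at 0, 15, 45 and 60 min) and Fcer1g (18, 11, 13 and 22). In WT these had 131, 119, 88 and 75 and 30, 31, 37 and 26 counts. In a bulk fraction, fewer cells of a type and less RNA per cell cannot be told apart.

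Class I heavy chain transcripts were low in KO cells at every time and no tested member was called changed after TNF, whereas in WT cells most members were higher at 45 and 60 min than at 0 min. Summed over the 7 members, KO libraries held 12.1, 13.8, 11.4 and 8.85 CPM at 0, 15, 45 and 60 min (202, 156, 144 and 118 counts). WT libraries held 49.7, 50.8, 143 and 170 CPM at these times (746, 706, 2004 and 2353 counts). The KO and WT sums did not overlap, and the 2 late WT libraries stood above the other 6.

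The KO sum over both late libraries was 0.837 of that at 0 min (95% counting interval 0.694 to 1.011). At 60 min the KO sum was 0.733 of that at 0 min (0.579 to 0.925), an interval that covers counting error only and for which no replicate exists. The WT sum was 3.15-fold higher over both late libraries than at 0 min (2.92 to 3.41), while at 15 min it was 1.02-fold (0.921 to 1.13). The KO sum was 4.12-fold lower than the WT sum at 0 min (3.52 to 4.83), 3.69-fold lower at 15 min (3.10 to 4.42), 12.5-fold lower at 45 min (10.6 to 15.0) and 19.2-fold lower at 60 min (15.9 to 23.3). The gap between genotypes was thus present before TNF and larger at the late times. The members were chosen with results of these data known, so the sum carries no p-value.

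**Figure D2:**
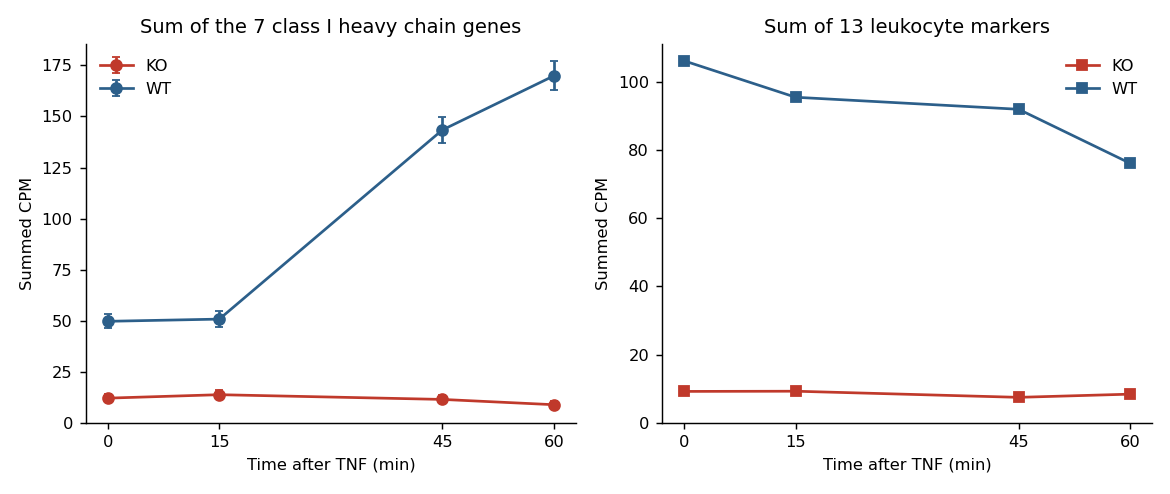
Summed CPM of the 7 class I heavy chain genes (left, with 95% counting intervals) and of 13 leukocyte markers (right) against minutes after TNF, in 1 KO and 1 WT library per time. Both KO sums lie below 14 CPM throughout, while the WT class I sum is 49.7 CPM at 0 min and 170 CPM at 60 min and the WT leukocyte sum is 106 CPM at 0 min and 76.1 CPM at 60 min. Most of the KO leukocyte sum is Cd68 and Fcer1g.

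H2-K1 and H2-D1 made up 73.7% to 76.2% of the family's counts in KO libraries and 79.5% to 82.7% in WT libraries. H2-K1 had 72, 70, 55 and 39 counts in KO cells at 0, 15, 45 and 60 min, against 267, 294, 952 and 1168 in WT cells. These are 4.30, 6.18, 4.37 and 2.93 CPM in KO and 17.8, 21.1, 68.1 and 84.4 CPM in WT. The KO libraries all lay below the lowest WT library, and within WT both late libraries lay above the early ones. At 60 min WT H2-K1 was 1.24-fold its level at 45 min (1.13 to 1.35).

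H2-D1 had 82, 45, 52 and 48 counts in KO cells, against 345, 267, 706 and 751 in WT cells. Here too the genotypes did not overlap, and the late WT libraries were the highest. Unlike those of H2-K1, the H2-D1 counts of WT at 60 min were 1.07-fold those at 45 min, with an interval that includes 1 (0.967 to 1.19).

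The balance between the 2 classical chains differed among the WT libraries. Of the counts on H2-K1 and H2-D1 together, H2-K1 took 46.8%, 60.9%, 51.4% and 44.8% in KO at the 4 times and 43.6%, 52.4%, 57.4% and 60.9% in WT. The WT share at 60 min (exact Clopper-Pearson interval 58.6% to 63.1%) lay above that at 0 min (39.7% to 47.7%). The KO shares followed no order in time.

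H2-Q4 had 11, 8, 4 and 4 counts in KO cells, against 86, 72, 184 and 257 in WT cells. Its WT libraries at 45 and 60 min were the highest and its 2 late KO libraries the lowest. The gene model Gm11131 lies antisense to H2-Q4 and shares 496 exonic bases with it. Whether the counting used strand is not stated, so reads of the pair cannot be told apart. Gm11131 itself had 0 to 3 counts in KO and 5 to 10 in WT.

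H2-T23 stood apart from the others by its small differences. It had 32, 28, 29 and 22 counts in KO cells, against 43, 48, 51 and 74 in WT cells. All KO libraries lay below all WT libraries, but at 0 min the KO level was 0.668 of the WT level with an interval that includes 1 (0.409 to 1.08). Within WT, only the 60 min library exceeded the 0 min library beyond counting error (1.87-fold, 1.26 to 2.78).

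H2-K2, the pseudogene, had 5, 4, 3 and 3 counts in KO cells, against 2, 16, 74 and 75 in WT cells. At 0 min the 2 genotypes did not differ beyond counting error, with a KO to WT ratio of 2.24 (0.367 to 23.6), and over the late libraries the KO level was 23.1-fold lower (10.4 to 64.1). Within WT the ratio to 0 min was 8.64 at 15 min (2.03 to 77.4) and 40.2 over both late libraries (10.9 to 335). These WT ratios rest on 2 counts at 0 min.

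H2-Q6 had 0, 0, 1 and 0 counts in KO cells, against 1, 5, 26 and 19 in WT cells. H2-Q7 had 0, 1, 0 and 2 counts in KO cells, against 2, 4, 11 and 9 in WT cells. Over all 4 libraries the KO level was 48.5-fold lower for H2-Q6 (1 against 51 counts, 8.33 to 1954) and 8.25-fold lower for H2-Q7 (3 against 26 counts, 2.53 to 42.6). The WT late libraries of both were the highest, with ratios to 0 min of 24.3 (4.14 to 980) for H2-Q6 and 5.397 (1.31 to 47.6) for H2-Q7. A count of 0 allows a level of up to 0.179 to 0.265 CPM, depending on the library.

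**Figure D3:**
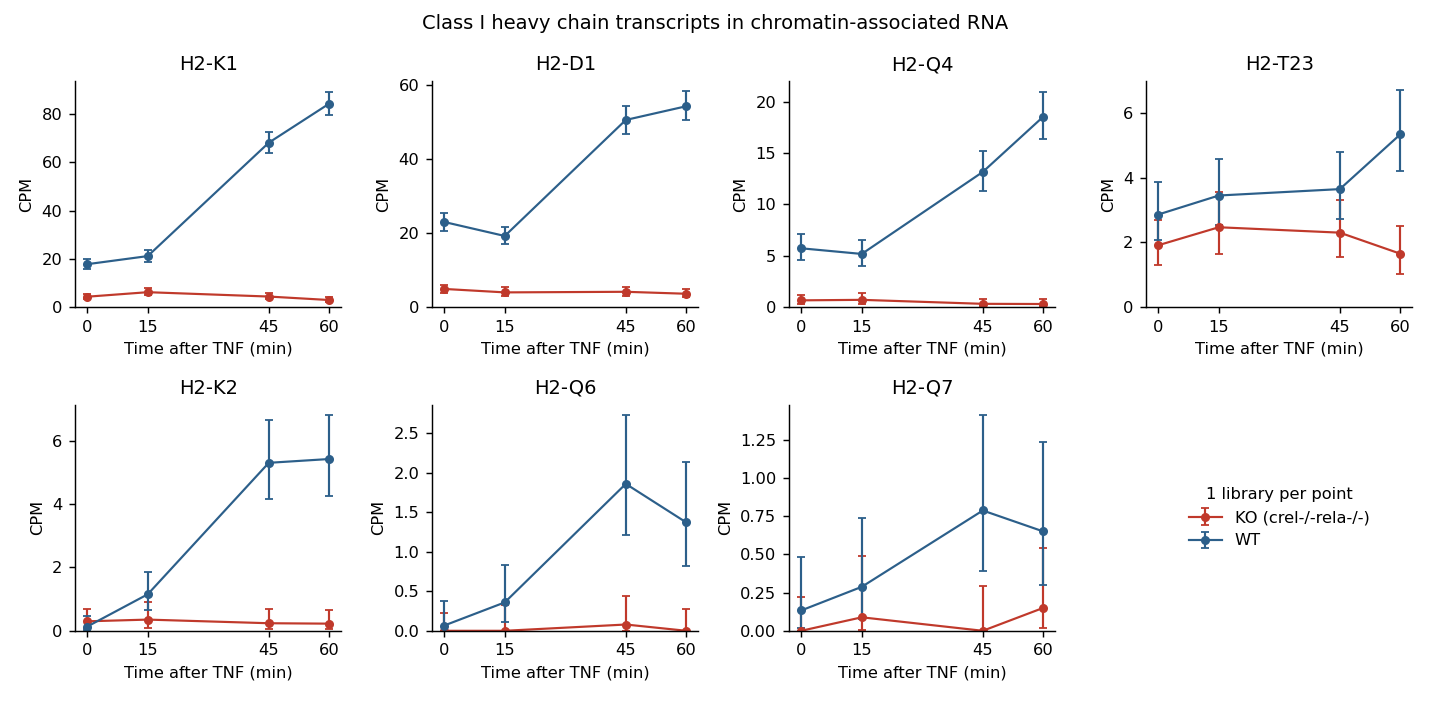
Level of each of the 7 members in CPM against minutes after TNF, 1 library per point, with 95% counting intervals and a separate vertical scale for each gene. The KO lines stay low, while in WT H2-K1, H2-D1, H2-Q4 and H2-K2 are higher at 45 and 60 min than at 0 and 15 min and H2-T23 is highest at 60 min.

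Levels of different members can be compared only per length. In KO the order by median CPM per kilobase of exon was H2-K1 (1.66), H2-D1 (1.57), H2-T23 (0.730), H2-K2 (0.256), H2-Q4 (0.188), H2-Q7 (0.0103) and H2-Q6 (0). In WT it was H2-K1 (17.1), H2-D1 (14.25), H2-Q4 (3.64), H2-K2 (3.07), H2-T23 (1.23), H2-Q6 (0.415) and H2-Q7 (0.110). H2-T23 thus stood above H2-K2 and H2-Q4 in KO and below both in WT. The ranges of H2-K1 and H2-D1 over the 4 times overlapped in both genotypes, at 1.122 to 2.37 and 1.40 to 1.90 in KO and at 6.82 to 32.3 and 7.45 to 21.03 in WT. In KO the range of H2-T23 (0.571 to 0.855) met neither neighbour's. In WT the range of H2-K2 (0.127 to 5.16) overlapped those of H2-Q4 (1.995 to 7.15) and H2-T23 (0.991 to 1.85).

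How far reads can be assigned to a member depends on sequence that the genes share. Of the 50-base windows of each member's transcripts in GENCODE M21, 90.4% of H2-K1, 90.6% of H2-K2, 87.2% of H2-D1 and 85.5% of H2-T23 occurred in no other gene. For H2-Q4, H2-Q6 and H2-Q7 the shares were 63.6%, 65.0% and 73.5%. H2-Q6 shared 13.9% of its windows with H2-Q7, and H2-Q7 shared 14.0% of its windows with H2-Q10. The values of H2-Q4, H2-Q6 and H2-Q7 are therefore the least certain as single genes, and how reads with several matches were counted is not stated.

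The responses were tested with edgeR's quasi-likelihood test across 15049 genes, with Benjamini-Hochberg adjustment at 0.05, in which the 45 and 60 min libraries of a genotype stood in for replicates (late). All fold changes of this fit are on the log2 scale. H2-Q7 was too low to be tested. H2-K2, H2-Q4 and H2-Q6 passed the filter of 10 counts in 2 libraries only through WT, so counts of calls over the members are no support for a difference.

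In KO, none of the 6 tested members was called in the late response, where 1.32% of all genes were called higher and 0.518% lower. The late KO change was -0.24 ± 0.29 for H2-K1 (SE, adjusted p = 0.713), -0.34 ± 0.24 for H2-D1 (0.489) and -1.07 ± 0.66 for H2-Q4 (0.432). For H2-T23 it was 0.04 ± 0.41 (adjusted p = 0.973), and its sign turned under total-count scaling. In KO the H2-K1 value without the 60 min library was 0.023, and that of H2-T23 without the 45 min library was -0.21.

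In WT, 5 of 6 tested members were called higher in the late response, where 4.17% of all genes were called higher and 1.31% lower. H2-K1 rose by 2.10 ± 0.23 (SE, adjusted p = 0.000236), H2-D1 by 1.19 ± 0.19 (0.00280) and H2-Q4 by 1.47 ± 0.28 (0.00930). H2-K2 and H2-Q6 were the other 2. H2-Q6 passed the filter only through the late WT libraries, and H2-K2 only with their help. This contrast asks whether those same libraries are higher. The calls of these 2 genes, and the count of 5 that includes them, are therefore no support for a rise in WT. H2-T23 was at 0.65 ± 0.36 (0.371) and was not called. As a description only, since 3 of the 6 passed the filter through WT alone, the median late change was -0.29 in KO and 1.78 in WT, beside -0.0054 and -0.0039 over all tested genes.

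With no filter or with DESeq2 3 members were called in WT. H2-Q4 was not among them, although its value stayed at 1.48 with no filter (adjusted p = 0.0678) and 1.47 with DESeq2 (0.104). With total-count scaling, which lowered the median of all genes by 0.215, H2-D1 was at 0.98 and not called (adjusted p = 0.0929).

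The late responses differed between genotypes past the threshold for H2-K1, by -2.34 ± 0.37 (KO minus WT, adjusted p = 0.0134). It was 1 of 6 tested members called lower in this contrast, where 0.492% of all genes were called lower and 0.00664% higher. For H2-D1 the difference was -1.53 ± 0.30 (adjusted p = 0.0520), for H2-Q4 -2.54 ± 0.73 (0.25) and for H2-T23 -0.61 ± 0.55 (0.939). H2-K2 was not called (0.0623).

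With no filter on low counts the H2-K1 call was lost (adjusted p = 0.240). The count of members called was 2 without the KO library of 15 min and 3 without the WT library of 45 min or of 60 min, H2-D1 being called in each of these. No leukocyte marker of 13 was called in this contrast. Of their values 6 were above 0 and 7 below, and the 4 with the smallest p were below 0. The difference was -1.43 ± 0.74 for Csf1r (SE, adjusted p = 0.736) and -1.88 ± 1.11 for Cd14 (0.801). Lyz2, a lysozyme of myeloid cells, had 7, 3, 0 and 0 counts in KO, against 228, 182, 115 and 147 in WT, with an unadjusted p of 0.00873 (adjusted p = 0.347). C1qa, a complement subunit made by macrophages, had 3, 0, 0 and 0 counts in KO, against 95, 46, 74 and 66 in WT, with an unadjusted p of 0.0389 (adjusted p = 0.613). Whether leukocyte RNA has a part in the H2-K1 difference was not tested.

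**Figure D4:**
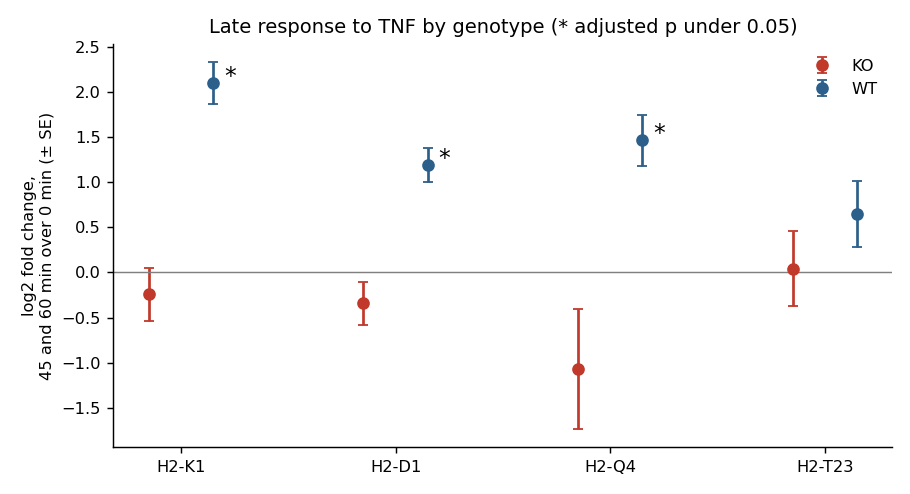
Late response to TNF (log2 fold change of 45 and 60 min over 0 min, ± SE) in KO and WT for H2-K1, H2-D1, H2-Q4 and H2-T23. H2-Q4 had 4 counts in each late KO library. The 4 KO values lie between -1.07 and 0.04 and do not pass an adjusted p of 0.05, while the 3 WT values with a star, 2.10 for H2-K1, 1.19 for H2-D1 and 1.47 for H2-Q4, do.

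At the late times all 6 tested members were lower in KO than in WT, where 7.88% of all genes were called lower and 3.92% higher. The level of KO over WT was -4.39 ± 0.21 for H2-K1 (SE, adjusted p = 7.10e-08) and -3.76 ± 0.18 for H2-D1 (6.39e-08). H2-Q4 and H2-K2 entered the test through WT, where they are high, so their counts are given in place of a p-value. The late H2-Q4 level was 51.4-fold lower in KO (8 against 441 counts, counting interval 25.8 to 120), and the late H2-K2 level is given above. H2-T23 was at -1.19 ± 0.31 (0.0269), and its call was lost with no filter, with DESeq2, and without the KO library of 45 min (-1.44, adjusted p = 0.0520), the KO library of 60 min (-0.96, 0.181) or the WT library of 60 min (-0.89, 0.154).

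With time as a block, over all 4 KO and 4 WT libraries, the 6 members were again lower in KO, where 9.44% of all genes were called lower and 6.81% higher. H2-K1 was at -3.16 ± 0.42 (SE, adjusted p = 0.000674), H2-D1 at -3.02 ± 0.26 (5.72e-05) and H2-T23 at -0.86 ± 0.23 (0.0296). Without the WT library of 45 min 3 members were called. The H2-T23 call was lost with DESeq2 (-0.86, adjusted p = 0.0992), with no time block (-0.88, 0.0520), and without the KO library of 45 min (-0.92, adjusted p = 0.0811), the KO library of 60 min (-0.57, 0.116), the WT library of 45 min (-0.92, 0.0777) or the WT library of 60 min (-0.58, 0.118), and the H2-K1 call with robust estimation (0.0835).

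Most leukocyte markers moved with genotype beside these levels. At the late times 11 of 13 were called lower in KO, where 7.88% of all genes were, and over all times 12 of 13, where 9.44% were. Cd68 (-0.07 ± 0.21, log2, SE) and Fcer1g (-0.74 ± 0.38) were not called at the late times. Most of the 13 passed the filter only through WT, where they are high, so these counts of calls are no support for a difference. Ptprc, which encodes the leukocyte antigen CD45, had 1, 2, 0 and 1 counts in KO, against 188, 168, 156 and 144 in WT. Csf1r, the receptor for macrophage colony-stimulating factor, had 13, 8, 3 and 4 counts in KO, against 230, 222, 248 and 159 in WT. Leukocytes carry class I molecules as fibroblasts do, and the part of these markers in the KO to WT levels was not tested. In the late response within WT none of the 13 was called, where 4.17% of all genes were called higher and 1.31% lower. Of the 13 values 12 were below 0. The part of leukocytes in the late WT response of class I genes was not tested either. Ptprc, Cd68 and Fcer1g were named after their values were seen.

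Some markers of 2 other cell types also moved. Both tested endothelial markers were called higher in KO, Kdr by 1.67 ± 0.29 and Tek by 1.71 ± 0.29 at the late times (SE, adjusted p = 0.00203 and 0.00166). The summed level of 6 endothelial markers was 8.97 to 14.7 CPM in KO, with 1 or 2 at 0, and 3.68 to 5.30 CPM in WT, with 2 to 4 at 0. The others of the 6 were too low to be tested. Pecam1 had 8, 1, 4 and 1 counts in KO and 0, 1, 8 and 6 in WT. Cdh5 had 13, 1, 0 and 0 in KO and 0, 1, 0 and 0 in WT. Emcn had 4, 0, 2 and 2 in KO and 0, 0, 1 and 0 in WT, and Cldn5 had 0 in every library. The epithelial keratin Krt18 had 35, 5, 6 and 10 counts in KO, against 3, 1, 1 and 4 in WT. It was called higher in KO over all times but not at the late times. It passed the filter only through KO, where it is high, so its call is no support for a difference. The KO library of 0 min, the only KO baseline, stood apart with 126 counts over 7 epithelial markers (7.53 CPM), against 5 to 14 in the other KO libraries and 1 to 12 in WT. The part of these markers in the class I levels was not tested. Kdr, Tek and Krt18 were named after their values were seen.

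Other genes of the class I route were then examined, from a list of 15 for the light chain, peptide supply, loading and their regulator. In the late response 0 were called in KO and 2 were higher in WT, where 4.17% of all genes were. In the difference between genotypes 1 was called lower, where 0.492% of all genes were. That gene was Tapbp, which encodes tapasin. It had 279, 179, 166 and 168 counts in KO, against 320, 240, 656 and 954 in WT. At 0 min its counts were thus close between the genotypes, and only in WT were the late libraries the highest. Its late response in WT was 1.44 ± 0.24 (SE, adjusted p = 0.00337), and the difference of responses was -1.81 ± 0.33 (KO minus WT, 0.0312).

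Psme2, a subunit of the proteasome activator PA28, was the other gene of the 2 and rose by 1.61 ± 0.37 in WT (SE, adjusted p = 0.0250), with 57, 39, 36 and 39 counts in KO and 55, 66, 108 and 203 in WT. Tap1, a subunit of the peptide transporter, had 229, 166, 126 and 113 counts in KO and 278, 231, 274 and 332 in WT, and its late WT value of 0.23 ± 0.21 was not called (0.606). Nlrc5, a transactivator of class I genes, had 54, 55, 52 and 77 counts in KO and 255, 236, 229 and 165 in WT, and its late WT value of -0.26 ± 0.25 was not called (0.631). B2m, the light chain, chosen after its values were seen, had 207, 118, 196 and 123 counts in KO and 532, 356, 526 and 607 in WT, and its late WT value of 0.20 ± 0.24 was not called (0.715).

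At the late times 10 of the 15 were called lower in KO than in WT, where 7.88% of all genes were, and over all times 11 of 15, where 9.44% were. The late KO response had a wide error for Psmb8 (-0.36 ± 1.00, SE) and Psmb9 (-0.49 ± 0.85). Whether these genes passed the filter only through WT is not shown here, so the counts of calls are no support for a difference. The late level was -1.72 ± 0.21 for B2m and -2.17 ± 0.19 for Tapbp (KO over WT). The median late level of the list was -1.59. The 3 endoplasmic reticulum chaperones that also serve other glycoproteins, Calr, Canx and Pdia3, were among those not called. The leukocyte markers given above moved in the same direction, and their part was not tested here either.

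**Figure D5:**
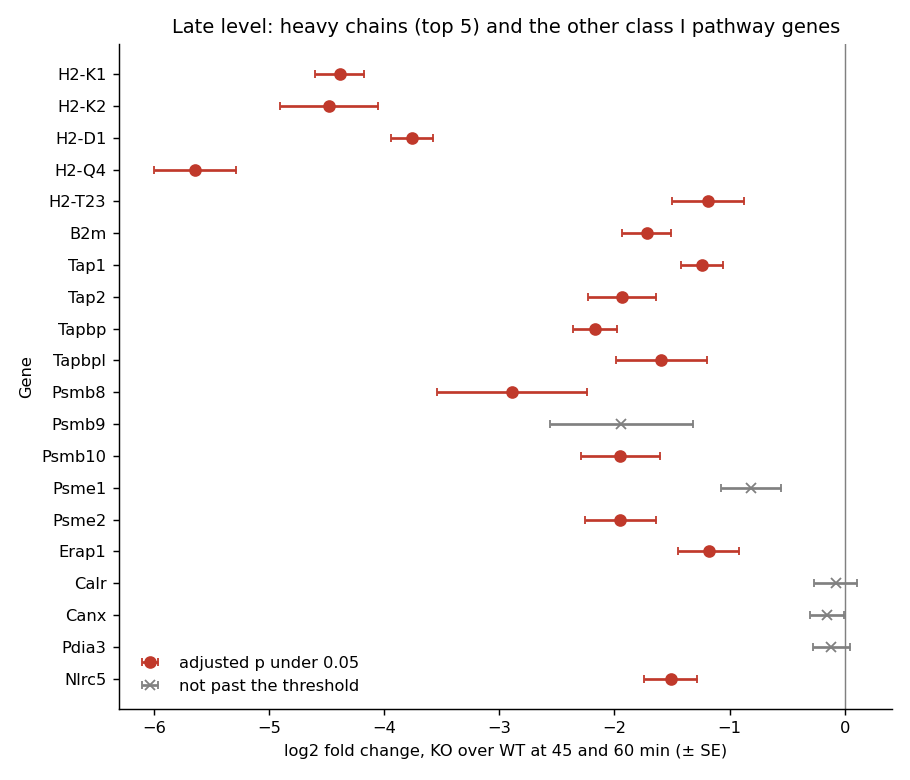
Late level in KO over WT (log2 fold change at 45 and 60 min, ± SE) for 5 heavy chain genes and the 15 other genes of the class I route. H2-Q6 and H2-Q7 are left out for their low counts. H2-K2 and H2-Q4 passed the filter only through WT. The 5 heavy chains lie between -5.64 and -1.19, and B2m is at -1.72.

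Of 23 other class I and class I-like heavy chain genes, 19 had a row and 10 were tested. In the late response 0 were called in KO and 1 was higher in WT, H2-Q5, a Qa-region relative with 0, 0, 1 and 0 counts in KO and 3, 11, 18 and 30 in WT, named after its values were seen. None of the 10 differed in response between genotypes. H2-T22, a nonclassical chain known as a ligand of gamma delta T cells, had 111, 34, 61 and 57 counts in KO and 111, 91, 166 and 238 in WT, and a difference of -1.52 ± 0.39 that was not called (SE, adjusted p = 0.169). At the late times 4 of the 10 were called lower in KO (H2-Q5, H2-T10, H2-T22 and H2-M3), where 7.88% of all genes were, and over all times 5, where 9.44% were. H2-Q5 passed the filter only through WT, where it is high, so its calls, and the counts that include it, are no support for a difference. The late KO response of H2-T10 had a wide error (0.05 ± 0.85, SE). Whether H2-T10 passed the filter only through WT is not shown here, so its calls are no support either. Class II genes, by comparison, were near 0 in both genotypes, with a summed level of 2.78 to 3.29 CPM in KO and 2.80 to 3.88 CPM in WT over 10 genes.

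Of 15 known regulators of class I transcription, 1 was called higher in the late response in KO (Nfkb2) and 8 in WT, and 5 had a smaller response in KO. Over all genes the shares called were 1.32%, 4.17% and 0.492%. Irf1, an interferon regulatory factor, had 176, 114, 203 and 234 counts in KO, against 224, 1162, 4053 and 3110 in WT. It was already higher in WT at 15 min, when the class I sum was not. Its late response was 0.68 ± 0.22 in KO (SE, adjusted p = 0.132) and 4.11 ± 0.24 in WT (1.49e-06), and the difference was -3.43 ± 0.30. The differences were -2.76 for Relb, -1.99 for Nfkb1 and -1.93 for Nfkb2, which encode NF-kB subunits, and -1.54 ± 0.27 for Rfx5, a subunit of the RFX complex, named after its values were seen (adjusted p = 0.0273).

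The genes whose log2 CPM followed the log2 family sum most closely over the 8 libraries were drawn from 11103 candidates. They were Gsdmd and Man1a (Pearson r = 0.990 each, n = 8), Atp8b4 (0.987), Ddx58 (0.986), Akap10 (0.984) and Tmed8, Zfp456 and Gbp3 (0.981 or 0.982 each). Gsdmd encodes gasdermin D, the pore-forming protein of pyroptosis, and had 61, 35, 29 and 31 counts in KO, against 136, 142, 252 and 310 in WT. Ddx58 encodes the RNA sensor RIG-I and had 531, 372, 323 and 402 counts in KO, against 922, 798, 1347 and 1257 in WT. Gbp3, a guanylate-binding protein, had 31, 24, 13 and 14 counts in KO, against 88, 87, 161 and 177 in WT. The late WT libraries were the highest in these 3 genes, which follows from choosing them for their likeness to the sum. The members' own r with the sum, to which each contributes, ran from 0.835 for H2-K2 to 0.997 for H2-K1. These correlations are descriptions over 8 libraries that share genotype and time groups.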

How the data were processed

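Per the labels' protocols, stranded libraries of chromatin-associated RNA, after removal of ribosomal RNA, were sequenced as 50-base single ends. The submitters' processing notes name cutadapt 1.12, STAR, featureCounts 1.5.0, DESeq2 and the build mm10. The authors deposited whole-number counts per gene for each of the 8 libraries, with coordinates and exon lengths. The strand setting, the rule for reads with several matches and the annotation are not stated. Symbols were matched by gene identifier for 98.8% of 45706 rows.

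The fits used TMM scaling (factors 0.818 to 1.21) and the genes that reached 10 counts in 2 or more libraries. edgeR 4.0.16 (R 4.3.3) fitted 6 cell means (0 min, 15 min and late in each genotype, 2 residual degrees of freedom), or genotype with time as a block (3 residual degrees of freedom). Standard errors are the log2 fold change over the square root of F. Ratios carry exact Clopper-Pearson intervals at 95%, which cover counting error only, since PCR copies are not independent molecules. Nothing says that libraries came from separate cultures, so p-values measure the spread between these libraries, which may be technical, and late libraries differ in time. No 2 libraries were duplicates (chi-square per degree of freedom 8.43 to 56.5).

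The members and lists were chosen with earlier results of these data known. Named beside the members were, per list, up to 4 tested genes with the smallest p in the difference of responses, and the 8 genes most like the family sum (mean of at least 20 counts, predicted models left out). On simulated counts for 15049 genes, the difference fit found 65.2% of 4-fold and 7.46% of 2-fold changes, and the late WT fit 89.4% and 37.3%. Protein identity was not analysed here, and 50-base windows of transcripts were used in its place. Alternatives were RLE and total-count scaling, other filters and baselines, DESeq2 1.42.0, limma-voom 3.58.1, robust estimation, and fits without each library in turn. Plots were made in matplotlib 3.10.9.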

Additional observations from a re-analysis of the deposited data

Results flagged for a closer look

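In 6 of the genes named by rule the late response to TNF differed between KO and WT past the threshold of edgeR's quasi-likelihood test of the difference itself (KO minus WT, log2 scale, Benjamini-Hochberg over 15049 genes). These were H2-K1 at -2.34 among the heavy chains, Tapbp at -1.81 in the route of peptide loading, and Irf1 at -3.43, Relb at -2.76, Nfkb1 at -1.99 and Nfkb2 at -1.93 among regulators. Rfx5, outside that rule, also passed at -1.54. Each rests on 1 library at 0 min and 2 late libraries per genotype.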

How the results depend on the processing

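H2-K1, H2-D1, H2-Q4 and H2-T23 stayed lower in KO at the late times and over all times under every alternative run, with H2-D1 called in each. Counts of members called moved as follows. For the late WT response 5 became 3 with no filter, with 10 counts in 4 libraries (which removes H2-K2 and H2-Q6) and with DESeq2, and 4 to 5 with a library left out. For the difference of responses 1 became 2 with total counts, with or without the 3 largest genes, 0 with no filter, 3 with 0 and 15 min as the baseline, and 1 to 3 with a library left out. For the level over all times it was 3 to 6, for the late level 4 to 6, and for the late KO response 0 throughout, with a library left out. With 15 min as the baseline, the difference of responses for H2-K1 was -2.61 (edgeR, adjusted p = 0.0146). Those of H2-D1 at -1.49 (0.156) and H2-Q4 at -2.78 (0.401) were not called. The late KO change turned sign for H2-T23 at -0.18 with total counts, -0.025 with total counts without the 3 largest genes, -0.13 with 0 and 15 min as the baseline and -0.32 with 15 min as the baseline. With a library left out it ran from -0.21 to 0.27 for H2-T23 and from -0.55 to 0.023 for H2-K1. WT H2-K1 at 15 min over 0 min, above 0 in the TMM scale, was at -0.087 (log2) with total counts.

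The family sum (log2 ratio) moved beyond its counting interval as follows. With total counts it was -0.16 for KO at 15 min and -0.47 at 45 min over 0 min, -0.31, 1.26 and 1.62 for WT at 15, 45 and 60 min over 0 min, 1.44 for late WT, and -3.95 for KO over WT at 45 min. With every other H2 class I gene added it was 1.38, 1.65 and 1.52 for WT at 45 min, 60 min and late, and -1.53, -3.06, -3.60 and -3.33 for KO over WT at 0, 45 and 60 min and late. Without H2-K1 the WT values were 1.24, 1.42 and 1.33, and KO over WT was -3.85 at 60 min and -3.63 late. Without H2-D1 the WT values were 0.24 at 15 min, 1.80 at 45 min, 2.12 at 60 min and 1.97 late. Without H2-T23 KO over WT was -3.94 at 45 min and -4.22 late. The cause of these shifts was not tested. Total counts also changed the split over all genes in the late WT response from 628 higher and 197 lower to 304 higher and 280 lower, and 2667 genes had an unadjusted p under 0.05 in the late KO response. Counts under 10 in KO limit H2-K2, H2-Q4, H2-Q6 and H2-Q7. No paired analysis was possible because the labels carry no replicate numbers that the groups share. Time was the block in the fit over all times.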

Other observations

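Some class I-like genes outside peptide presentation to CD8+ T cells had counts that overlapped between the genotypes. Fcgrt, the neonatal Fc receptor, had 203, 108, 144 and 96 counts in KO, against 154, 122, 117 and 109 in WT. Cd1d1, which presents lipids to natural killer T cells, had 35, 28, 24 and 22 counts in KO, against 25, 37, 31 and 29 in WT. Mr1, which presents microbial metabolites, had 53, 15, 18 and 37 counts in KO, against 37, 33, 20 and 20 in WT. None of these 3 was called in any of the 5 contrasts tested with edgeR's quasi-likelihood test. Their late levels in KO over WT were 0.19 ± 0.23 for Fcgrt, -0.28 ± 0.32 for Cd1d1 and 0.55 ± 0.39 for Mr1 (log2, SE). The iron regulator Hfe, of the same list, was at -0.73 ± 0.57 and not called, while H2-T10 and H2-T22 were called lower, at -2.67 ± 0.52 and -1.67 ± 0.23. The call of H2-T10 is no support for a difference, as said above. Fcgrt, Mr1 and Hfe were chosen after their values were seen.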
